A study of Mus musculus with 64 samples.

Results

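The genes of the IL-2 and IL-7 receptor and STAT5 axis were followed through bulk RNA-seq libraries of mouse CD4+ T cells in which the transcription factor Foxp3 was either removed or restored. They were the cytokine gene Il2, the receptor chains Il2ra, Il2rb, Il2rg, Il7r and Il15ra, the transcription factors Stat5a and Stat5b, and the kinases Jak1 and Jak3, each taken by its symbol from the count table of every library. These were 10 of 55809 listed genes, all 10 were found, and all 10 passed the minimum mean count of 10 read pairs in every comparison. The study comprised 64 libraries in 28 groups, from a degron experiment that asked what loss of Foxp3 protein changes in regulatory T (Treg) cells and a reversible-allele experiment that asked what restoring Foxp3 changes in cells that lacked it. Adult degron groups came from females heterozygous for Foxp3-AID, an allele that fuses Foxp3 to an auxin-inducible degron and also makes ZsGreen and the recombinase iCre. They carried either ROSA26-TIR1(F74G), a plant ligase subunit that becomes expressed once Cre has removed a stop cassette, or ROSA26-WT, and all of them received 5-ph-IAA for 7 days. With 3 libraries per genotype, sorted ZsGreen+ cells were CD73- cells of the thymus or active cells of spleen and lymph nodes. Infant degron groups were males with the same alleles and the same 7 days of 5-ph-IAA, begun the day after birth, with 4 libraries per group. Reversible-allele groups came from females heterozygous for Foxp3-LSL, in which a loxP-flanked Thy1.1 and stop cassette keeps functional Foxp3 off. PlusFoxp3 groups carried CreERT2 driven by Cd4 and minusFoxp3 groups had WT Cd4, so that 4-hydroxytamoxifen (4-OHT) restored Foxp3 in the former and not in the latter. After 4-OHT, plusFoxp3 cells were sorted by the GFP that the restored allele makes, and minusFoxp3 cells as GFP- Thy1.1+ cells. Resting and active cells were collected untreated (day 0) and 3, 7, 14 and 28 days after 4-OHT, and untreated GFP Treg cells (Foxp3GFP, an intact Foxp3 gene with a reporter) were collected in both states, with 2 libraries per group.

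IL-2 is the growth and survival factor of Treg cells, which make little of it themselves and take it up from other T cells. Its receptor joins an alpha chain (Il2ra, CD25), which raises affinity, with a beta chain (Il2rb, CD122) and the common gamma chain (Il2rg, CD132), and the beta and gamma chains signal. IL-15 uses the same signalling chains with its own alpha chain (Il15ra), whereas IL-7 uses the gamma chain with Il7r (CD127), the receptor of naive and memory T cells that Treg cells are known to carry at low levels. Binding activates Jak1, attached to the beta chain or Il7r, and Jak3, attached to the gamma chain, which phosphorylate Stat5a and Stat5b. STAT5 then enters the nucleus and drives genes for survival and for feedback inhibition, and in Treg cells it is known to act on Foxp3 and Il2ra.

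Read pairs assigned to genes numbered 27753211 to 34029692 per library for the adult degron mice, 33704114 to 55801009 for infants and 35097257 to 57419138 for the reversible-allele and GFP Treg groups. The records of the degron libraries contradict each other. In adult degron files the library name in the header is that of a sample with the other genotype than the sample the file belongs to. The genotype in the names of these files is that of the header. Header names were used here, and with the recorded samples in their place all adult differences between TIR1 and WT libraries change sign, and the WT libraries compared between tissues become TIR1 libraries. Titles and genotype fields disagree for all 8 infant libraries, and their file names and column headers carry the genotype of the titles. Their groups are therefore given by title, as titled TIR1 or titled WT, and the direction of their comparison is not settled. Foxp3 was measured at 44.3 to 81.5 CPM (counts per 1000000 read pairs assigned to genes in the library) in minusFoxp3 libraries of days 3 to 28 and at 426 to 615 CPM in plusFoxp3 libraries, which did not overlap, and at 635 to 817 CPM in GFP Treg cells. The arms were sorted by the GFP of the Foxp3 allele, so their separation was set by the sort and is no test of restoration. At day 0 Foxp3 was not called between the arms in either state. Its degron differences were not called, with log2 fold changes of -0.05 in the thymus, -0.42 in active cells and -0.06 in infants, and the degron acts on protein. Summed over the marker lists, 4 B cell genes lay at 9.52 to 57.7 CPM and 4 myeloid genes at 0.898 to 28.5 CPM. The 4 CD8 and NK cell genes lay at 9.16 to 63.4 CPM and the 4 double-positive thymocyte genes at 0 to 7.03 CPM. A list of 7 genes of Treg cells and of CD4+ T cells in general, Il2ra among them, lay at 3646 to 7728 CPM. That sum does not tell Treg cells from other CD4+ T cells. In bulk libraries a change in the share of cells that express a gene and a change in its RNA per cell cannot be told apart.

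Per kb of exon, which allows levels to be compared between genes, the shared chains stood highest. In thymus WT libraries Il2rg lay at 479.7 ± 30.2 CPM per kb (SD, n = 3), Il2rb at 245 ± 31.3, Jak1 at 141 ± 3.46 and Il2ra at 74.0 ± 11.6. Stat5b, Jak3 and Stat5a followed at 50.5 ± 6.83, 34.2 ± 2.64 and 34.0 ± 2.93, the last pair within each other's spread, and Il15ra, Il7r and Il2 were lowest at 4.56 ± 0.398, 3.15 ± 0.414 and 0.328 ± 0.197. The order was alike in most groups, with a few exchanges. Il2rb lay above Il2rg in infants, at 382 ± 22.9 against 222 ± 14.3 CPM per kb in libraries titled WT (SD, n = 4). In resting GFP Treg cells the values of Il2rb and Il2rg were 401 ± 47.2 and 388 ± 12.0 CPM per kb (SD, n = 2), within their spread. Il7r moved furthest in the order, from near the bottom in the thymus to 56.4 ± 4.13 CPM per kb (SD, n = 3) in active WT libraries, beside Jak3 at 56.4 ± 23.2. Il2 stayed at the bottom, at most 3.50 ± 0.203 CPM per kb in the groups plotted. The levels of degron and reversible-allele libraries were counted with different mapping quality filters, and were not tested against each other.

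**Figure D1:**
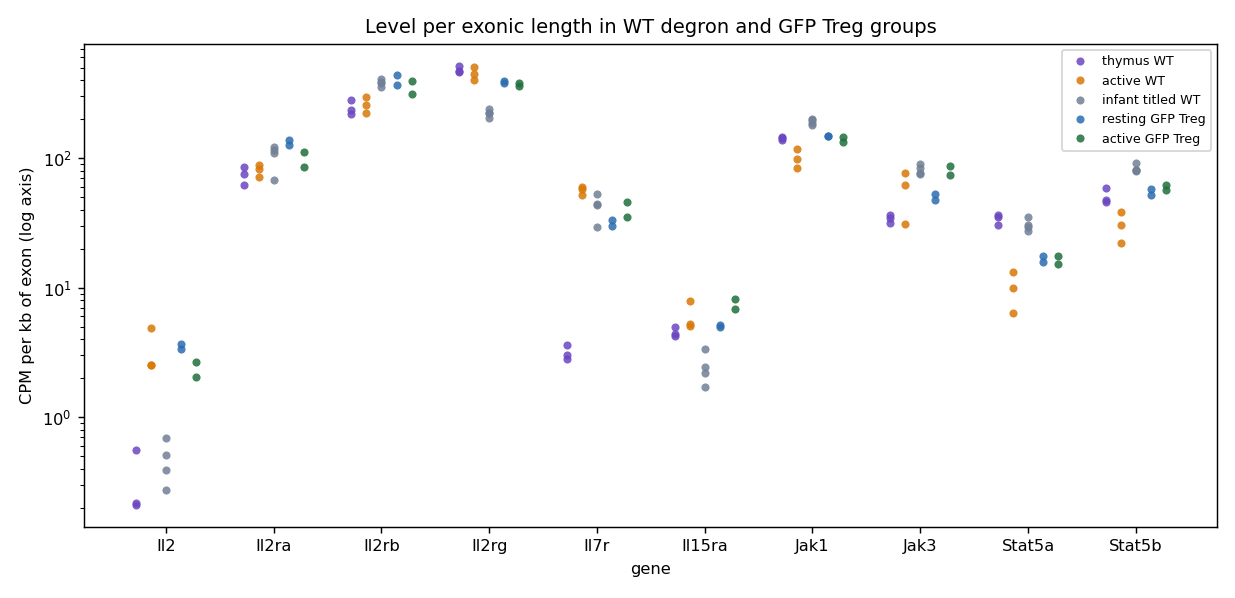
Level of each of the 10 genes in CPM per kb of exon (log axis) in thymus WT, active WT, infant titled WT, resting GFP Treg and active GFP Treg libraries, with 1 point per library (2 to 4 per group). By group mean, Il2rg and Il2rb stand highest and Il2 lowest in all 5 groups, and Il7r is the gene whose position differs most, from 3.15 CPM per kb in thymus WT to 56.4 in active WT libraries.

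Il2ra was higher in plusFoxp3 than in minusFoxp3 cells of both states from day 3 on. In resting plusFoxp3 libraries it lay at 559 and 437 at day 3, 613 and 571 at day 7, 652 and 596 at day 14 and 540.2 and 621 at day 28, in CPM. The resting minusFoxp3 libraries lay at 259 and 250.3 at day 3, 235 and 268 at day 7, 261 and 288 at day 14 and 279 and 258 at day 28. Every plusFoxp3 library was above every minusFoxp3 library, and the gap was already present at day 3. In active cells the plusFoxp3 libraries lay at 406 and 375 at day 3, 457 and 455 at day 7, 424 and 525 at day 14 and 408 and 585 at day 28, in CPM. Their minusFoxp3 counterparts were at 262 and 248 at day 3, 229 and 288 at day 7, 281 and 322 at day 14 and 249 and 267 at day 28. Here too the arms did not overlap, although the lowest plusFoxp3 library, at day 3, lay closer to the highest minusFoxp3 library, at day 14. The mean of days 3 to 28 gave a log2 fold change of 1.15 ± 0.10 (SE, adjusted p = 7.29e-06) in resting cells and of 0.79 ± 0.10 (SE, adjusted p = 9.53e-05) in active cells. Both calls were kept in all 21 alternative analyses, including those that left out each library in turn.

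The promoter of Il2ra is shown because this chain was called in both states, as the 250 bases before the RefSeq start on the + strand of GRCm38.p6, with an ETS core (AGGAAG, read here on the opposite strand) in capitals. The files themselves use GRCm39, in which Il2ra spans chr2:11647618-11698004.
Il2ra promoter, chr2:11642542-11642791: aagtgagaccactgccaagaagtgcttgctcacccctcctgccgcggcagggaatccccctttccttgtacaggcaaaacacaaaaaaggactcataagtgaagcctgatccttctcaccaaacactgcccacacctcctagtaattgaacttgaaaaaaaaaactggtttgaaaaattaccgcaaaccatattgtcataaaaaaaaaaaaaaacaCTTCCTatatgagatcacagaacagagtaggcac
RefSeq promoters of 250 bases before to 50 after the start were found for 9 of the 10 genes, without Il2rb. Both strands were searched for 3 motifs. AGGAAG occurred in 6 of these genes and in 35.4% of 32851 promoters of the same length, so that its presence 34 bases before the Il2ra start is common. The forkhead core GTAAACA was in none of the genes and in 3.65% of all promoters, and the STAT palindrome TTCNNNGAA was in Il7r alone and in 8.3% of all. No matches of different motifs overlapped. A match describes letters only, and binding was not measured here.

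**Figure D2:**
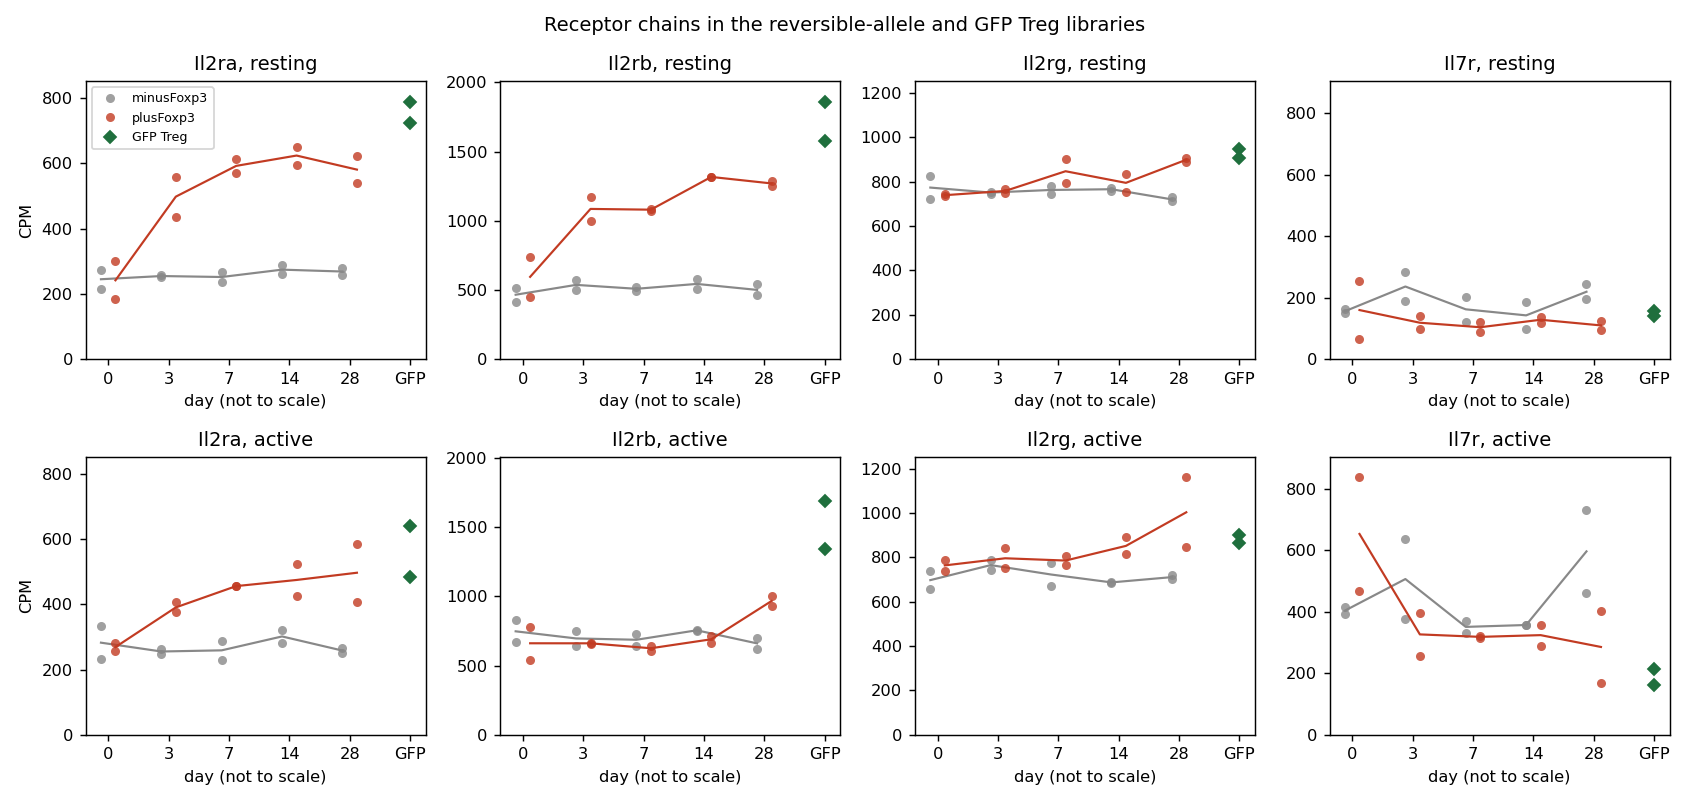
CPM of Il2ra, Il2rb, Il2rg and Il7r in resting and active cells by day after 4-OHT (days not to scale), with 1 point per library for minusFoxp3, plusFoxp3 and GFP Treg groups of 2 and lines through the group means. Il2ra plusFoxp3 points stand above the minusFoxp3 points in both states from day 3, those of Il2rb do so at every such day only in resting cells, and those of Il7r overlap with minusFoxp3 points in both states over all days.

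Il2rb, the signalling chain shared by IL-2 and IL-15, differed between the arms in resting cells. Resting plusFoxp3 libraries lay at 1169 and 1001 at day 3, 1071 and 1088 at day 7, 1314 and 1319 at day 14 and 1248 and 1290.3 at day 28, in CPM. Resting minusFoxp3 libraries lay at 572 and 501 at day 3, 495 and 521 at day 7, 509.9 and 577 at day 14 and 540.2 and 459.8 at day 28. The arms were separated by more than the spread within either, at every day. The log2 fold change over days 3 to 28 was 1.21 ± 0.10 (SE, adjusted p = 3.36e-06), and the call was kept in all 21 alternatives. Active plusFoxp3 cells lay at 665 and 657 at day 3, 644 and 607 at day 7, 716 and 664 at day 14 and 934 and 1001 at day 28, in CPM. Active minusFoxp3 cells lay at 748 and 645 at day 3, 645 and 729 at day 7, 751 and 759 at day 14 and 618 and 703 at day 28. At day 3 the active plusFoxp3 libraries lay between the minusFoxp3 libraries, at days 7 and 14 they lay below them, and only at day 28 were both plusFoxp3 libraries above both minusFoxp3 libraries. Of all genes in active cells, 38.8%, 44% and 42.3% did not overlap between the arms at days 7, 14 and 28. The active log2 fold change over days 3 to 28 was 0.08 ± 0.08 (SE, adjusted p = 0.727), and at day 28 alone it was 0.56 ± 0.17 (SE, adjusted p = 0.131).

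Whether the effect of Foxp3 differed between states was tested in 1 model over all 44 reversible-allele and GFP Treg libraries. At day 28, 0 of the 10 genes were called by edgeR, 1 had an unadjusted p under 0.05 and DESeq2 called 0, beside 0.0818% of 20790 genes called by edgeR. That gene was Il2rb, with a difference of -0.80 ± 0.27 (SE) on the log2 scale, active minus resting, and an edgeR adjusted p of 0.53. Tests over other days were added after the values had been seen. Over the mean of days 3 to 28 the difference for Il2rb was -1.14 ± 0.14 (SE, edgeR adjusted p = 1.59e-05), and it was called without each of the 32 libraries of those days in turn, with values from -1.17 to -1.10. There 1 of the 10 genes was called, beside 1.82% of all genes. At day 14 the difference was -1.46 ± 0.27 (SE, adjusted p = 0.0422) and 1 of the 10 genes was called beside 0.0433% of all genes. At day 7 it was -1.18 ± 0.27 (SE, adjusted p = 0.197), with 0 of the 10 genes called by edgeR, 2 at an unadjusted p under 0.05 and 0.0289% of all genes called. The effect on Il2ra had a difference between the states over days 3 to 28 that was not called (log2 scale, -0.38 ± 0.14, SE, adjusted p = 0.208).

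Markers of the active state moved with the arms. Cd44, Itgae (an integrin chain that binds E-cadherin) and Klrg1 (a receptor of effector T cells) together lay at 64.8 to 104 CPM in resting minusFoxp3 and 98.2 to 212 CPM in plusFoxp3 libraries of days 3 to 28, and at 208 to 358 and 353 to 640 CPM in active ones. Within each of these days both plusFoxp3 sums were above both minusFoxp3 sums. Of the 3 genes, Itgae and Klrg1 were called over days 3 to 28 in both states and Cd44 in neither. Itgae had log2 fold changes of 3.44 ± 0.32 (SE, adjusted p = 1e-05) in resting and 1.94 ± 0.14 (SE, adjusted p = 1.34e-07) in active cells, and Cd44 0.27 ± 0.12 (SE, adjusted p = 0.244) and 0.13 ± 0.10 (SE, adjusted p = 0.584). The part of these markers in the changes of Il2ra, Il2rb, Il2rg and the pathway genes was not tested. In degron libraries the sums were 66.1 to 77.8 CPM in TIR1 and 56.7 to 83.0 CPM in WT thymus, where Klrg1 was at 0 in all 6 libraries, 243 to 292 and 277 to 341 CPM in active cells, and 153 to 211 CPM in infants titled TIR1 and 82.8 to 167 CPM in those titled WT, overlapping each time.

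Il2rg, the chain that all receptors of this family share, showed small differences. Over days 3 to 28 resting minusFoxp3 libraries ranged over 712 to 782 CPM with a median of 751, and plusFoxp3 libraries over 749 to 909 CPM with a median of 813. Active minusFoxp3 libraries ranged over 673 to 789 CPM with a median of 711, and plusFoxp3 libraries over 751 to 1161 CPM with a median of 827. The arms overlapped in both states, and the highest value, in active plusFoxp3 replicate 1 of day 28, stood far above its partner in 1161 and 846 CPM. The log2 fold change was 0.16 ± 0.06 (SE, adjusted p = 0.135) in resting cells, where DESeq2 called the gene (adjusted p = 0.0115). In active cells it was 0.27 ± 0.07 (SE, adjusted p = 0.0295). The active call was lost without any 1 of 9 libraries of the 16, with adjusted p-values from 0.0539 to 0.0784, and when only the libraries compared were fitted (adjusted p = 0.0759). These were replicate 1 of either arm at day 3, both plusFoxp3 libraries of day 7, both minusFoxp3 libraries and plusFoxp3 replicate 1 of day 14, and minusFoxp3 replicate 2 and plusFoxp3 replicate 1 of day 28. Il15ra, the alpha chain for IL-15, lay at 15.8 to 31.7 CPM with a median of 21.5 in resting minusFoxp3 and 15.3 to 23.5 CPM with a median of 18.4 in plusFoxp3 cells. Its log2 fold changes were -0.23 ± 0.12 (SE) in resting and -0.02 ± 0.10 (SE) in active cells, with edgeR adjusted p-values of 0.331 and 0.965.

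Il7r, the receptor chain of IL-7, had negative estimates in plusFoxp3 against minusFoxp3 cells of both states, and neither was called. Resting plusFoxp3 libraries lay at 98.0 and 139 at day 3, 86.8 and 120.5 at day 7, 138 and 118 at day 14 and 124 and 95.6 at day 28, in CPM. Resting minusFoxp3 libraries lay at 189.9 and 282 at day 3, 202 and 122 at day 7, 98.8 and 186 at day 14 and 243 and 196 at day 28. The minusFoxp3 libraries were spread widely, and 1 of day 7 and 1 of day 14 lay within the plusFoxp3 range. In active cells plusFoxp3 libraries lay at 258 and 396 at day 3, 321 and 316 at day 7, 358 and 290.3 at day 14 and 403 and 169 at day 28, and minusFoxp3 libraries at 376 and 637 at day 3, 331 and 371 at day 7, 356 and 359 at day 14 and 732 and 461 at day 28. The arms overlapped again over all days, while within days 7 and 28 they did not, with the 2 plusFoxp3 libraries close together at day 7 and far apart at day 28. At those days 38.8% and 42.3% of all genes did not overlap either. The log2 fold change over days 3 to 28 was -0.67 ± 0.22 (SE, adjusted p = 0.111) in resting cells and -0.47 ± 0.19 (SE, adjusted p = 0.185) in active cells. In resting cells the Il7r difference was called by DESeq2 (adjusted p = 0.0408), without the count filter (adjusted p = 7.88e-08) and when only the compared libraries were fitted (adjusted p = 0.0232). In active cells it was called without the count filter (adjusted p = 4.62e-05) and without plusFoxp3 replicate 1 of day 28 (log2 fold change -0.66, adjusted p = 0.0293).

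The promoter of Il7r is shown because this gene differed most between thymic and active cells below. It is given as the 250 bases before the RefSeq start, on the - strand of GRCm38.p6, with the STAT palindrome (142 bases before the start) and an ETS core on the opposite strand (48 bases before it) in capitals. In GRCm39 the gene spans chr15:9505874-9530262. The end of the 50 bases after the start matched an annotated transcript for Il2ra and did not for Il7r. The start used for Il7r was thus not backed by this check.
Il7r promoter, chr15:9529877-9530126: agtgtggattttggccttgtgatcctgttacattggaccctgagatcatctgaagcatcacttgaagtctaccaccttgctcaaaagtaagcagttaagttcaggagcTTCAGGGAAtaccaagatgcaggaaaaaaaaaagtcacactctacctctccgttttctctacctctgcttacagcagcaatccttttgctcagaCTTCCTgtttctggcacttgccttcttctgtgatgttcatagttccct

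Il2, the cytokine gene itself, was low everywhere. Library counts were 3 to 41 read pairs in the thymus, 91 to 316 in the adult peripheral groups and 16 to 44 among infants. Over days 3 to 28, resting minusFoxp3 cells ranged over 2.80 to 5.51 CPM with a median of 4.28, and plusFoxp3 cells over 2.59 to 4.27 CPM with a median of 3.39. The log2 fold changes over these days were -0.22 ± 0.20 (SE) in resting and -0.22 ± 0.16 (SE) in active cells, with edgeR adjusted p-values of 0.624 and 0.568, and the arms overlapped in both.

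Jak1, Jak3, Stat5a and Stat5b, the kinases and transcription factors below the receptors, were not called in either state over days 3 to 28. Jak1 lay at 932 to 1260.3 CPM with a median of 1099.8 in resting minusFoxp3 and 970.3 to 1313 CPM with a median of 1168 in plusFoxp3 libraries, and Jak3 at 166 to 289 CPM with a median of 227 and 191 to 316 CPM with a median of 280.1. Their log2 fold changes in resting cells were 0.13 ± 0.08 (SE) and 0.31 ± 0.16 (SE). In active cells these were 0.20 ± 0.08 (SE) and 0.13 ± 0.14 (SE), and all 4 had edgeR adjusted p-values of 0.205 or above. Stat5a lay at 102 to 133 CPM with a median of 122 in resting minusFoxp3 and 97.1 to 161 CPM with a median of 153 in plusFoxp3 libraries, and Stat5b at 264 to 325 CPM with a median of 295 and 270.4 to 382 CPM with a median of 353. The log2 fold changes of Stat5a were 0.27 ± 0.13 (SE) in resting and 0.14 ± 0.14 (SE) in active cells, and those of Stat5b 0.20 ± 0.11 (SE) and 0.18 ± 0.09 (SE). All 4 estimates were positive and the arms overlapped in each case. Stat5a and Stat5b are close paralogs on chromosome 11, at 100750177 to 100775995 and 100671557 to 100741550, so their counts are uncertain. Stat5a shares 72 exonic bases with Stat3 on the other strand, and Jak3 shares 404 with Insl3, which had 10194 read pairs over all libraries against 910549 for Jak3. Counting did not use strand.

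By single day, 0, 0, 1, 2 and 2 of the 10 genes were called in resting cells at days 0, 3, 7, 14 and 28, beside 0.00487%, 0.0487%, 0.0585%, 0.268% and 0.945% of 20520 genes. At days 0 and 3, edgeR gave 0 and 3 of the 10 genes an unadjusted p under 0.05, and DESeq2 called 0 and 2. The gene at day 7 was Il2ra, and Il2ra and Il2rb were called at days 14 and 28. Of these calls, that of Il2rb at day 28 held in 8 of 9 alternatives, Il2rb at day 14 in 6, Il2ra at days 14 and 28 in 5 each and Il2ra at day 7 in 3. In active cells 0, 0, 0, 0 and 1 of the genes were called, beside 0.00481%, 0.274%, 0.568%, 0.732% and 1.85% of 20776 genes. There edgeR gave 1, 1, 3 and 2 genes an unadjusted p under 0.05 at days 0, 3, 7 and 14, and DESeq2 called 0, 0, 1 and 0. The called gene was Il2ra at day 28, with a log2 fold change of 0.95 ± 0.20 (SE, adjusted p = 0.0172), held in 5 of 9 alternatives. Over the mean of days 3 to 28, which uses 16 libraries, 2 of the 10 genes were called in resting cells beside 4.73% of all genes, and 2 in active cells beside 6.22%.

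At day 0 both arms were untreated, and no gene of the axis was called between them. Il2ra lay at 216 and 274 CPM in resting minusFoxp3 and 183 and 299.8 in plusFoxp3 libraries. Resting plusFoxp3 replicates differed from each other at day 0, with Il7r at 64.6 and 255 CPM and Il2rb at 739 and 449.5 CPM in replicates 1 and 2, where the minusFoxp3 libraries lay at 162 and 150.0 and at 414 and 517. Without replicate 2 of that group, with the remaining library assumed to vary like the other groups, Il2rb and Il7r were called and the number of genes called rose from 1 to 2096. In active cells of day 0, Il7r lay at 393 and 415 CPM in minusFoxp3 and 469 and 838 in plusFoxp3 libraries. Active minusFoxp3 replicates of day 7 also differed, with Jak3 at 194 and 389 CPM and Stat5a at 39.4 and 86.8 CPM. Without replicate 2 of that group, 5 of the 10 genes (Il2ra, Jak1, Jak3, Stat5a and Stat5b) were called at day 7 and the number of genes called went from 118 to 2435.

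**Figure D3:**
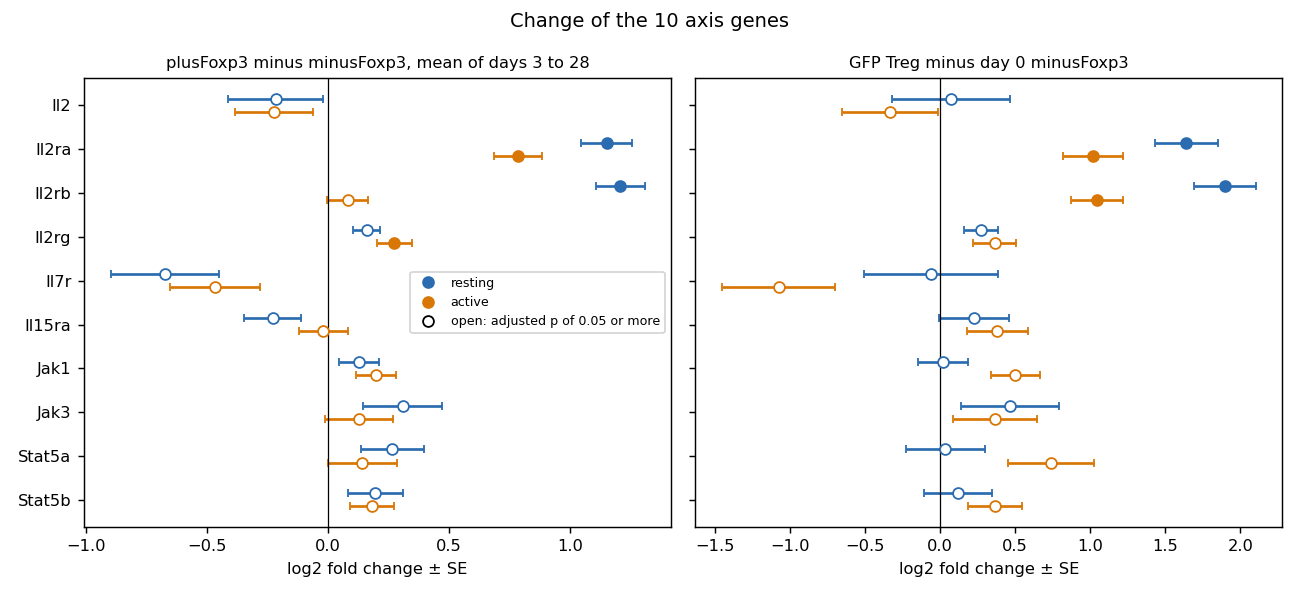
Log2 fold change of each of the 10 genes with bars of 1 SE, for plusFoxp3 minus minusFoxp3 cells over days 3 to 28 and for GFP Treg minus day 0 minusFoxp3 cells, in resting and active cells. Il2ra lies right of 0 in every comparison, Il2rb is called in all but the active comparison over days 3 to 28 (0.08), and Il7r lies left of 0 in each, with open symbols for adjusted p-values of 0.05 or more.

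GFP Treg cells, which carry an intact Foxp3 gene, give a level that restored cells may be set beside. They came from untreated mice with another Foxp3 allele than the other groups here, and allele and Foxp3 expression cannot be told apart in these comparisons. Resting GFP Treg libraries had Il2ra at 789 and 725 CPM and Il2rb at 1861 and 1574 CPM. Active ones had Il2ra at 485 and 639 CPM and Il2rb at 1686 and 1345 CPM. In both states these were above both day 0 minusFoxp3 libraries of the gene, which lay at 216 and 274 and at 231 and 333 for Il2ra and at 414 and 517 and at 668 and 827 for Il2rb, resting and active. Against day 0 minusFoxp3 cells, 2 of the 10 genes were called in resting cells beside 2.91% of all genes, and 2 in active cells beside 10%, Il2ra and Il2rb each time. In resting cells the log2 fold changes were 1.64 ± 0.21 (SE, adjusted p = 0.00027) for Il2ra and 1.90 ± 0.21 (SE, adjusted p = 6.54e-05) for Il2rb. In active cells they were 1.02 ± 0.20 (SE, adjusted p = 0.00277) for Il2ra and 1.04 ± 0.17 (SE, adjusted p = 0.000595) for Il2rb. The active Il2ra call was lost without day 0 minusFoxp3 replicate 1 (adjusted p = 0.083) and when only the compared libraries were fitted (adjusted p = 0.0618). Il7r lay at 163 and 215 CPM in active GFP Treg cells against 393 and 415 in day 0 minusFoxp3 cells. Its groups did not overlap, as was so for 48% of all genes, with a log2 fold change of -1.07 ± 0.38 (SE, adjusted p = 0.0937). This difference was called by DESeq2 (adjusted p = 0.0381), without the count filter (adjusted p = 4.98e-07) and when only the compared libraries were fitted (adjusted p = 0.0183). In resting cells Il7r gave -0.06 ± 0.45 (SE, adjusted p = 0.985). The summed active-state markers lay at 370 to 405 CPM in resting GFP Treg against 76.1 to 82.5 CPM in day 0 minusFoxp3 libraries, and at 740.4 to 1033 against 246 to 272 CPM in active ones, with the same 2 of 3 genes called, and their part in these results was not tested. These comparisons share the day 0 minusFoxp3 libraries with the day 0 comparison of the arms.

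Day 28 plusFoxp3 cells were then set beside GFP Treg cells, and 0 of the 10 genes were called by edgeR in resting cells beside 0.0341% of all genes, and 0 in active cells beside 2.01%. In each state 1 gene had an unadjusted p under 0.05, Il2rb, and DESeq2 called 0 genes in resting and 1, Il2rb, in active cells. Il2rb lay at 1861 and 1574 CPM in resting GFP Treg cells against 1248 and 1290.3 at day 28, and at 1686 and 1345 in active GFP Treg cells against 934 and 1001. The GFP Treg libraries were above the restored ones in both states, without overlap. Groups did not overlap for 3 of the 10 genes in resting cells, beside 30.6% of all genes. In active cells this held for 6 of the 10, beside 43%. The log2 fold change was 0.44 ± 0.20 (SE, adjusted p = 1.00) in resting cells and 0.65 ± 0.17 (SE, adjusted p = 0.0641) in active cells. The 2 comparisons with GFP Treg cells share those libraries within each state, so their values are not independent.

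Between the states, resting and active cells differed in Il7r and Il2rb where Foxp3 was absent. Day 0 minusFoxp3 cells had Il7r at 162 and 150.0 CPM in resting and 393 and 415 in active libraries, Il2rb at 414 and 517 and 668 and 827, and Jak1 at 941 and 1191 and 644 and 799. Of the 10 genes 3 were called beside 13.4% of 20790 genes. The log2 fold changes, active minus resting, were 1.37 ± 0.44 (SE, adjusted p = 0.0379) for Il7r, 0.68 ± 0.19 (SE, adjusted p = 0.0153) for Il2rb and -0.57 ± 0.16 (SE, adjusted p = 0.017) for Jak1. The Il7r call was lost without any 1 of the 4 libraries, that of Il2rb without resting replicate 1 or active replicate 2, and that of Jak1 without active replicate 1 or resting replicate 2, with adjusted p-values from 0.088 to 0.218. In GFP Treg cells 0 of the genes were called between states by edgeR, 2 had an unadjusted p under 0.05 and DESeq2 called 0, beside 3.12% of all genes called by edgeR. Il2ra there was at 789 and 725 CPM in resting and 485 and 639 in active cells, a log2 fold change of -0.45 ± 0.20 (SE, adjusted p = 0.283). Il15ra was at 22.1 and 22.9 and 36.3 and 30.2 CPM, a log2 fold change of 0.54 ± 0.21 (SE, adjusted p = 0.185).

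In the thymus, Il7r had the largest absolute log2 fold change of the 10 genes between TIR1 and WT cells. It lay at 30.02, 38.26 and 27.45 CPM in TIR1 and 13.2, 14.0 and 16.8 CPM in WT libraries. Every TIR1 library was above every WT library. The log2 fold change was 1.12 ± 0.23 (SE) with an unadjusted p of 0.00102 and an edgeR adjusted p of 0.452, while DESeq2 gave an adjusted p of 0.00454. Il2rg, at 993, 1076 and 1036 CPM in TIR1 and 1227, 1094 and 1114 in WT libraries, also did not overlap and had a log2 fold change of -0.15 ± 0.06 (SE, adjusted p = 0.666). These were 2 of the 10 genes without overlap, beside 13% of 14245 genes. Of the 10 genes 0 were called by edgeR beside 0% of all genes (1050 of which had an unadjusted p under 0.05), 2 of the 10 had an unadjusted p under 0.05, and DESeq2 called 1 of them. Il2ra was at 325, 369.8 and 369 CPM in TIR1 and 353, 429 and 485 in WT libraries, which overlapped, with a log2 fold change of -0.26 ± 0.12 (SE, adjusted p = 0.699). The other 7 genes had log2 fold changes between -0.15 for Il2rb and 0.53 for Il2, the latter from 3 to 41 read pairs per library.

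In active cells, Il2ra and not Il7r had the lowest p-value. Il2ra lay at 304, 279.7 and 305 CPM in TIR1 and 409, 469 and 504 CPM in WT libraries. The groups did not overlap. The log2 fold change was -0.67 ± 0.13 (SE) with an unadjusted p of 0.000602 and an edgeR adjusted p of 0.9999, and DESeq2 gave an adjusted p of 0.00185. Of the 10 genes 0 were called by edgeR beside 0% of 14554 genes (672 with an unadjusted p under 0.05), 1 had an unadjusted p under 0.05, and DESeq2 called 1. It was the 1 gene without overlap, beside 10.1% of all genes. Il7r lay at 289, 348 and 259.9 CPM in TIR1 and 242, 279 and 268 in WT libraries, which overlapped, with a log2 fold change of 0.15 ± 0.14 (SE, adjusted p = 0.9999). Il2rb lay at 1007, 935 and 974 CPM in TIR1 and 948, 1095 and 1274 in WT libraries, with a log2 fold change of -0.22 ± 0.13 (SE, adjusted p = 0.9999). Jak3 varied widely among WT libraries, at 166, 332 and 408 CPM, and gave -0.55 ± 0.31 (SE, adjusted p = 0.9999). Tested as a difference of effects, thymus minus active, 0 of the 10 genes were called by edgeR beside 0% of 14769 genes (984 with an unadjusted p under 0.05), 2 of the 10 had an unadjusted p under 0.05, and DESeq2 called 1. The difference was 0.97 ± 0.21 (SE) for Il7r (unadjusted p = 0.00059, edgeR adjusted p = 0.569, DESeq2 adjusted p = 0.0101) and 0.41 ± 0.17 (SE) for Il2ra (edgeR adjusted p = 0.707).

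**Figure D4:**
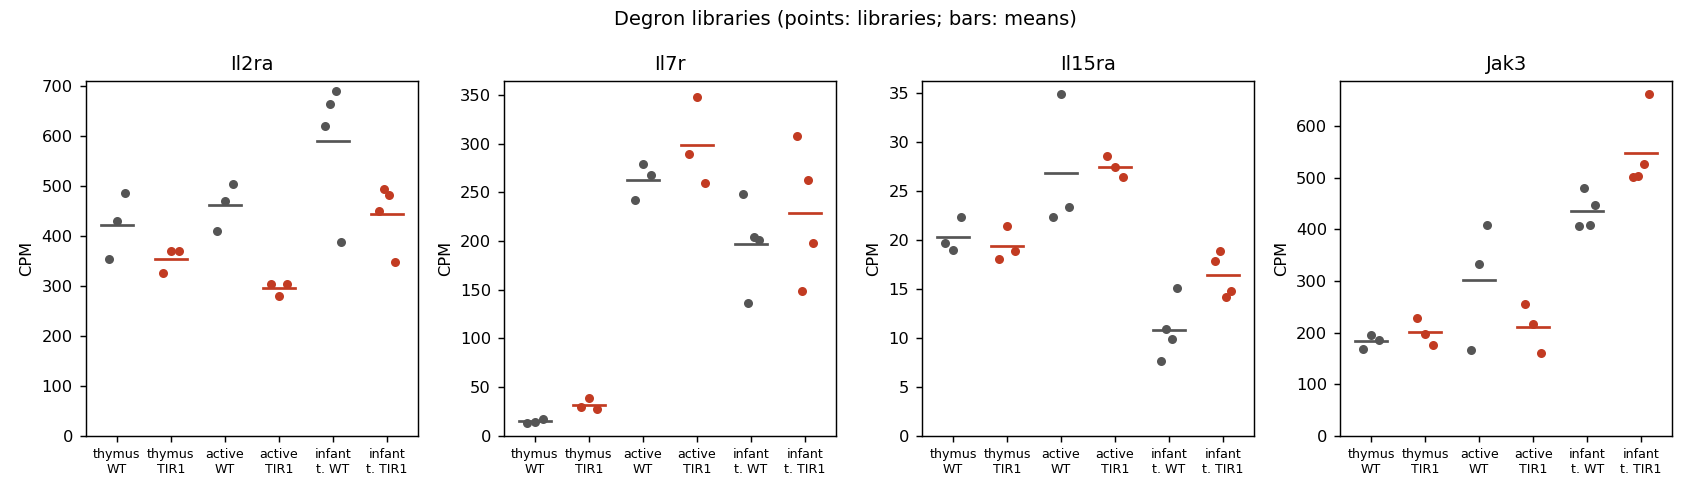
CPM of Il2ra, Il7r, Il15ra and Jak3 in the 6 degron groups, with points for libraries and bars for means (n = 3 in thymus and active groups, n = 4 in infants, whose groups are named by title, marked t.). Il7r is low in the thymus, between 13.2 and 38.3 CPM, and higher in its TIR1 libraries, and Il2ra is lower in all 3 active TIR1 libraries (279.7 to 305 CPM) than in the active WT libraries (409 to 504 CPM).

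In infants, 0 of the 10 genes were called by edgeR beside 0.0185% of 16209 genes, 3 had an unadjusted p under 0.05 and DESeq2 called 2. Il15ra lay at 17.8, 18.8, 14.1 and 14.7 CPM in libraries titled TIR1 and 7.58, 10.9, 9.84 and 15.1 in those titled WT. Jak3 lay at 501, 503, 526 and 662 and 406, 481, 409 and 448 CPM. The Jak3 groups did not overlap, and those of Il15ra did only through titled WT replicate 4. Stat5b was the other gene without overlap, at 434, 410.4, 432 and 440.3 and 445, 505, 441 and 448 CPM, so that 2 of the 10 genes had separate groups beside 8.73% of all genes. The log2 fold changes were 0.61 ± 0.20 (SE, adjusted p = 0.149) for Il15ra and 0.35 ± 0.10 (SE, adjusted p = 0.125) for Jak3, the pair that DESeq2 called (adjusted p = 0.0376 and 0.0316). Jak1 gave -0.16 ± 0.07 (SE, adjusted p = 0.254), and Stat5b -0.08 ± 0.06 (SE, adjusted p = 0.556). Il2ra lay at 450.3, 494, 483 and 347 CPM in libraries titled TIR1 and 619.6, 663, 689 and 388 in those titled WT, a log2 fold change of -0.40 ± 0.18 (SE, adjusted p = 0.295). Titled WT replicate 4 stood apart from its group, with 437 of 16209 genes (2.7%) at least 2-fold from the median of its group mates, against 0.241% to 0.568% for the other 7 libraries. Its Il2ra lay within the range of the libraries titled TIR1 and below the other 3 of its own group. The same library had Il4 at 17.5 CPM, against 0.645 to 0.771 in its group mates and 13.3 to 18.8 in libraries titled TIR1. Its Il4ra was at 1027 CPM, against 481 to 526 and 875 to 1256. Without this library, 2 of the 10 genes were called, Il15ra (log2 fold change 0.81, adjusted p = 0.00875) and Il2ra, and the number of genes called went from 3 to 1774. What sets it apart was not tested. Il7r in infants ranged from 136 to 308 CPM over the 8 libraries and overlapped between the groups.

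Among WT degron libraries, active cells of spleen and lymph nodes differed from thymic cells in most of the axis. Of the 10 genes 6 were called beside 23% of 14769 genes. Il7r lay at 242, 279 and 268 CPM in active and 13.2, 14.0 and 16.8 CPM in thymic libraries, a log2 fold change of 4.26 ± 0.17 (SE, adjusted p = 2.24e-08). Stat5a lay at 45.5, 70.5 and 94.3 CPM in active and 219, 251 and 258 CPM in thymic libraries, a log2 fold change of -1.70 ± 0.21 (SE, adjusted p = 0.000103). The 2 genes moved in opposite directions, and both calls held in all 10 alternatives. Il2 was higher in active cells, at 5.62, 2.92 and 2.91 against 0.248, 0.636 and 0.241 CPM, with 3.42 ± 0.88 (SE, adjusted p = 0.0137), from 7, 19 and 7 read pairs in the thymus. Stat5b (-0.64 ± 0.20 SE, adjusted p = 0.0381), Jak1 (-0.41 ± 0.12 SE, adjusted p = 0.0223) and Jak3 (0.81 ± 0.26 SE, adjusted p = 0.0403) were also called, Jak3 with overlapping groups. Without a thymus library, the Il2 call was lost for replicates 1 and 3, that of Stat5b for all 3, that of Jak1 for replicates 2 and 3 and that of Jak3 for all 3. Without an active library, Stat5b and Jak1 were lost for replicates 1 and 2 and Jak3 for replicates 2 and 3, and over these alternatives 2 to 5 of the genes were called. The IL-2 receptor chains were not called, with log2 fold changes of 0.22 ± 0.12 (SE) for Il2ra, 0.16 ± 0.11 (SE) for Il2rb and 0.01 ± 0.11 (SE) for Il2rg and edgeR adjusted p-values of 0.238, 0.34 and 0.979. Under the recorded samples these 6 libraries would be TIR1 and not WT. Tissue, sort gate and cell state cannot be told apart here.

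Genes below STAT5 were followed as a list of 11 (Cish, Socs1, Socs2, Socs3, Bcl2, Mcl1, Pim1, Pim2, Ccnd2, Osm and Myc). In resting cells over days 3 to 28, 3 of 11 were called beside 4.73% of all genes, 2 higher and 1 lower, with a list median log2 fold change of -0.01 beside -0.02 for all genes tested. Pim1, a survival kinase, rose by a log2 fold change of 0.93 ± 0.15 (SE, adjusted p = 0.00127), and Cish, a feedback inhibitor, by 0.49 ± 0.10 (SE, adjusted p = 0.00661), whereas Pim2 changed by -0.48 ± 0.09 (SE, adjusted p = 0.00368). In active cells 4 of 11 were called beside 6.22% of all genes, 2 higher and 2 lower, with a median of 0.02 beside -0.00035 for all genes. Pim1 changed by 0.64 ± 0.16 (SE, adjusted p = 0.021), and Mcl1, which protects from apoptosis, by 0.27 ± 0.06 (SE, adjusted p = 0.0062). Bcl2, which does so too, changed by -0.60 ± 0.10 (SE, adjusted p = 0.00106) and Myc by -0.36 ± 0.07 (SE, adjusted p = 0.00384). The list thus held calls in both directions in both states. In active cells the Pim1 call was lost without any 1 of 4 libraries, minusFoxp3 replicate 1 of day 3 or day 28 and plusFoxp3 replicate 2 of day 7 or day 14 (adjusted p up to 0.0712). Pim1 lay at 234 and 265 CPM in resting plusFoxp3 libraries of day 28, 90.2 and 126 in minusFoxp3 and 261 and 416 in GFP Treg libraries. Against day 0 minusFoxp3 cells, GFP Treg cells had 1 of 11 called in the resting state beside 2.91% of all genes, Pim1 (2.16 ± 0.31 SE, adjusted p = 0.000637), and 4 in the active state beside 10%, of which Socs2 was the furthest (-2.92 ± 0.25 SE, adjusted p = 9.88e-07).

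The other cytokines and receptors that use the common gamma chain were followed in a list of 9 that also held Crlf2, which does not use this chain. Of the 9, 6 passed the count filter in resting and 8 in active cells. Over days 3 to 28, 1 of 6 was called in resting cells and 4 of 8 in active cells, beside 4.73% and 6.22% of all genes, with median log2 fold changes of 0.26 and -0.15. Il4 and Il21, cytokines of helper T cells, were lower, Il4 with a log2 fold change of -2.19 ± 0.33 (SE, adjusted p = 0.000883) in resting and -2.46 ± 0.23 (SE, adjusted p = 3.03e-06) in active cells, and Il21 with -2.48 ± 0.27 (SE, adjusted p = 2.4e-05) in active cells. The receptors Il4ra and Il21r rose in active cells, with 0.72 ± 0.11 (SE, adjusted p = 0.000578) and 1.19 ± 0.12 (SE, adjusted p = 9.97e-06). Active plusFoxp3 libraries of day 28 had Il21r at 263 and 386 CPM against 95.4 and 113 in minusFoxp3 libraries and 708 and 538 in GFP Treg libraries. The calls of Il4, Il21, Il4ra and Il21r held in all 21 alternatives. Against the same shares of all genes called, of 7 other JAK and STAT genes 0 were called by edgeR in either state, with 2 in resting and 0 in active cells at an unadjusted p under 0.05, 0 in both by DESeq2, and medians of 0.05 and 0.02. Of the adaptors and brakes, 0 of 10 were called in resting cells (0 at an unadjusted p under 0.05 and 0 by DESeq2) and 2 of 11 in active cells, Grb2 (0.24 ± 0.07 SE, adjusted p = 0.0408) and Pik3r1 (0.35 ± 0.09 SE, adjusted p = 0.0267), with medians of 0.04 and 0.06. Most alternatives that left out a library lost the Grb2 call, and 11 of 21 alternatives kept that of Pik3r1. Of 5 factors known to act at Il7r or Il2ra, 0 were called in resting cells, with 2 at an unadjusted p under 0.05 and 1, Gfi1, by DESeq2, and 1 in active cells, Foxo1, a known activator of Il7r (0.32 ± 0.06 SE, adjusted p = 0.0047).

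**Figure D5:**
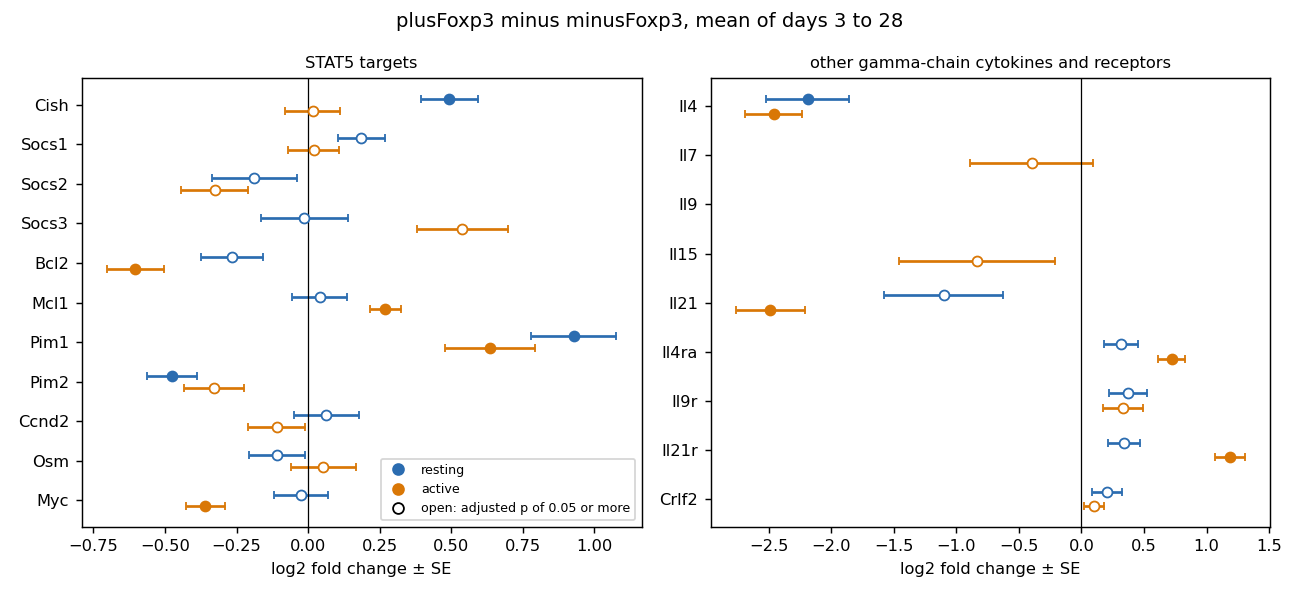
Log2 fold change of the STAT5 targets and the list of other gamma-chain genes (which also holds Crlf2), plusFoxp3 minus minusFoxp3 over days 3 to 28, with bars of 1 SE, in resting and active cells. Calls of STAT5 target genes lie on both sides of 0 in both states, and among gamma-chain genes Il4 (-2.19 in resting and -2.46 in active cells) and Il21 lie furthest left, while Il21r and Il4ra lie to the right in active cells. Open symbols have an adjusted p of 0.05 or more.

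In the degron comparisons 0 genes of these 5 lists were called by edgeR in thymus, active or infant cells, beside 0%, 0% and 0.0185% of all genes, with 11, 7 and 15 of them at an unadjusted p under 0.05 and 0, 1 and 6 called by DESeq2. Of the STAT5 targets 3, 2 and 3 of 11 had an unadjusted p under 0.05 there, with list medians of -0.12, -0.06 and 0.09 beside -0.0022, -0.0091 and -0.0052 for all genes. Between active and thymic WT cells 9 of 11 STAT5 targets were called, beside 23% of all genes, 3 higher and 6 lower in active cells, and the list median was -0.49 beside 0.03 for all genes. Socs2 (4.06 ± 0.19 SE, adjusted p = 6.08e-08), Pim1 (3.31 ± 0.26 SE, adjusted p = 2.37e-06) and Socs3 (3.15 ± 0.31 SE, adjusted p = 1.71e-05) were higher, and Bcl2 (-1.83 ± 0.17 SE, adjusted p = 9e-06) and Socs1 (-1.04 ± 0.11 SE, adjusted p = 2.01e-05) lower. Pim1 lay at 136, 114 and 108 CPM in active and 9.86, 18.1 and 10.5 CPM in thymic WT libraries. Bcl2 lay at 108, 124 and 103 and 418, 415 and 444 CPM. 

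Across the 22 group means of the reversible-allele and GFP Treg libraries, the genes most like Il2ra among 12398 genes with a mean count of at least 100 were Foxp3 (Pearson r = 0.937), Patl2 (0.926) and Tpm4 (0.921), and the most unlike was Thy1 (-0.953), whose reporter form marks unrecombined cells. For Il7r they were Pxdc1 (0.953), Sgms1 (0.946) and Mcoln2 (0.945), and the most unlike was Ppm1b (-0.951). Within the axis, Il2ra went with Il2rb (0.873) and Il2rg (0.759), and Il7r against Stat5a (-0.885) and Jak1 (-0.834). The 22 points hold both cell states and both arms and share the counting, so these values describe the groups and are not tests.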

How the data were processed

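The data were bulk RNA-seq libraries (SMART-Seq v4 cDNA, paired-end reads) of sorted CD4+ T cells. The authors deposited 1 table of whole-number counts per library, read pairs assigned to genes of GRCm39 with featureCounts, and nothing in these counts was normalised. Sources differ on the aligner. The 20 degron libraries were counted with a mapping quality filter and the other 44 without, so both sets were fitted separately. Totals ranged from 27753211 to 57419138 read pairs, at which a gene of 1 CPM has about 28 or more read pairs. Every column of the tables was assigned to a sample, by the library name in its header for the adult degron files and by the file's sample elsewhere.

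CPM is the count over the library total. Comparisons used edgeR 4.0.16 (R 4.3.3) with TMM factors and the robust quasi-likelihood test, on genes whose counts averaged 10 or more in the fitted libraries, adjusted by Benjamini-Hochberg over all genes tested. Adjusted p-values are edgeR's unless another tool is named. A gene was called at an adjusted p under 0.05. SE is that of the log2 fold change. Fits held thymus, active and infant degron libraries each alone, thymus and active together for their differences, and resting, active or all 44 reversible-allele and GFP Treg libraries. Scripts were tested on simulated data. The study describes the replicates of the adult degron and reversible-allele experiments as independent biological ones, and no label ties a library to an animal, so where replicates are not separate animals p-values measure only the spread between libraries. No 2 replicates agreed within sampling noise (lowest chi-square per gene 17.3 over 46 pairs). Deviations of same-numbered libraries from their group means correlated at -0.203 to 0.408. The highest values were between the states, 0.408 in day 0 minusFoxp3 and 0.312 in GFP Treg cells. They do not settle whether the numbers pair libraries, and the main fits did not use pairs.

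The genes of the axis, the pathway and marker lists and the tests were chosen with earlier results of these data known. The text names all 10 genes of the axis, the pathway genes called in a comparison it describes, and for Il2ra and Il7r the 3 most and the 1 least correlated genes. Il9r was called between active and thymic WT cells but not described, being listed at 0 in the thymus. As alternatives, DESeq2 1.42.0, RLE factors, a fit of all genes, a replicate block, a fit of the compared libraries alone and the omission of each library in turn were run. State differences over other days and a crossed block were added after the data had been seen. Exonic lengths and positions came from the deposited tables, and promoters from RefSeq (GRCm38.p6). A gene of the marker lists is not reported here.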

Additional observations from a re-analysis of the deposited data

Results flagged for a closer look

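Among 20 pairs of gene and infant group, 2 held a library far from the others by Dixon's criterion, which flags about 1 group in 20 by chance. Jak3 in replicate 4 of the infants titled TIR1 was at 662 CPM, with its nearest neighbour at 526 CPM. Stat5b in replicate 2 of the infants titled WT was at 505 CPM, with its nearest neighbour at 448 CPM. The other groups had too few libraries for this criterion.

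In 3 of 60 gene and contrast pairs, every library of one state moved one way and every library of the other state the opposite way. For Il2rb the log2 ratio of group means, plusFoxp3 over minusFoxp3, was lower in active than in resting cells by 1.22 at day 7 and by 1.41 at day 14, given as differences of -1.22 and -1.41. The fitted difference was tested at each day and was called at day 14 alone of these. For Stat5b at day 14 the difference of the ratios was -0.36, and the fitted difference was -0.41 (edgeR adjusted p = 0.718).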

How the results depend on the processing

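The counts of axis genes called depended on the processing as follows, and the cause was not tested. With DESeq2 they were 1 in the thymus and 1 in active degron cells, 1 for their difference and 2 in infants (edgeR 0 in each), 2 at resting days 3 and 7 (0 and 1), 4 over resting days 3 to 28 (2), 1 and 2 at active days 7 and 28 (0 and 1), and 1 for active GFP Treg against day 28 cells (0). Without the count filter they were 3 and 2 at resting days 3 and 7, 1 at each of active days 0, 3, 7 and 14 and 2 at day 28, 4 for active GFP Treg against day 0 cells (2) and 1 against day 28 cells (0), and between states 1 in GFP Treg (0) and 5 in day 0 cells (3). RLE factors gave 0 at resting day 7. With only the libraries compared, counts were 2, 0, 0 and 1 at resting days 3, 7, 14 and 28, 0 at active day 28 and 1 over active days 3 to 28. The added state differences gave 1 over days 3 to 28 and 1 at day 14 (0 at day 28). No called difference reversed in any alternative. Among differences that were not called, the added state differences of Il2, Il7r, Stat5a, Stat5b, Jak1 and Jak3 were positive at day 7 and negative at day 14, and over days 3 to 28 those of Il2, Il7r, Stat5a and Stat5b changed sign with the library left out.

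Leaving out each library in turn gave 0 to 2 genes in infants, 2 to 5 between active and thymic WT cells, 0 to 2 at resting day 0, 0 at resting day 7, 0 to 2 at resting days 14 and 28, 0 to 5 at active day 7, 0 to 2 at active day 28, 1 to 3 over active days 3 to 28, 1 to 2 for active GFP Treg against day 0 cells and 1 to 2 between states at day 0. A lone library left in a group was assumed to vary like the other groups.

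The replicate numbers were shared between groups, and no label says whether they pair the libraries. With the replicate block, 1 gene was called at active day 7 (Il2ra, adjusted p = 0.0254) and 2 at active day 28 (with Il2rg), where the fit without it gave 0 and 1, and other counts did not change by over 1.5 times. For active GFP Treg against day 0 cells, 2079 genes were called without a block, 2238 with it and 2264 with crossed numbers.

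Over all genes, the numbers called, with the main number in parentheses, were without the count filter 5 (0) in thymus, 2 (0) in active and 149 (3) in infant degron cells, 353 (1), 664 (10), 493 (12), 665 (55) and 884 (194) at resting days 0, 3, 7, 14 and 28, 1907 (970) over resting days 3 to 28, 1436 (597) and 328 (7) for resting GFP Treg against day 0 and day 28 cells, 337 (1), 575 (57), 996 (118), 847 (152) and 1174 (385) at the active days, 2242 (1292) over active days 3 to 28, 1217 (417) for active GFP Treg against day 28 cells, 502 (17) for the day 28 difference between states and 1411 (648) between GFP Treg states. With DESeq2 they were, in that order, 156, 21 and 1108, 45, 220, 147, 294 and 463, 1572, 1036 and 58, 17, 264, 482, 518 and 793, for active GFP Treg against day 28 cells 819, 67 and 1172, and 71 (0) for the difference of degron effects. RLE factors gave 1 (0) in the thymus. The replicate block gave 7 (3) in infants, 16 (10) and 87 (55) at resting days 3 and 14, 2 (1) at active day 0 and 28 (17) for the day 28 difference. With only the libraries compared they were 0 (1), 204 (10), 8 (55) and 28 (194) at resting days 0, 3, 14 and 28, 289 (597) and 0 (7) for resting GFP Treg, 0 (1), 5 (57), 4 (118) and 194 (385) at active days 0, 3, 7 and 28, and 89 (417) for active GFP Treg against day 28 cells. Depth limits Il2, at 3 to 41 read pairs in the thymus.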
